A study of Drosophila melanogaster with 23 samples.

Results

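The canonical cytoplasmic ribosomal protein genes of Drosophila melanogaster were followed through 23 poly(A) RNA sequencing libraries from ovaries. Members were the genes whose FlyBase symbol starts with RpS, RpL or RpLP and goes on with a number, together with sta, which encodes the small-subunit protein RpSA. Duplicated genes with germline-biased copies, such as RpS19a and RpS19b, RpS5a and RpS5b, and RpS10a and RpS10b, were left out, as was RpL22. The tables held 71 members among 17023 gene IDs, 27 for the 40S subunit and 44 for the 60S subunit. A further 4 symbols that meet the rule, RpL19, RpL27A, RpL31 and RpS12, were not analysed here.

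The libraries came from ovaries of flies 1 to 5 days after eclosion, in 12 groups with 2 libraries each, except whole ovaries with 1. MSL3 RNAi, NC2b RNAi and Set2 RNAi carried UAS-Dcr2 and the nosGAL4 driver, which is active in germ cells, and no bam RNAi. Their control, hsbam, carried bam RNAi and an hsbam transgene with nosGAL4, and was deposited as libraries 1 and 2, the control for MSL3 RNAi and NC2b RNAi, and libraries 3 and 4, the control for Set2 RNAi. A line with bam RNAi and an S19b mutation was set against bam RNAi alone, both with nosGAL4. Total and polysome RNA were taken from S19b RNAi, which carried UAS-Dcr2 and nosGAL4, and from hsbam, both after loading on gradients. Whole ovaries carried UAS-Dcr2 and nosGAL4 with no RNAi. Every comparison of MSL3 RNAi, NC2b RNAi, Set2 RNAi or S19b RNAi with hsbam therefore also differs in bam RNAi, the hsbam transgene and UAS-Dcr2. The bam RNAi line shares bam RNAi and nosGAL4 with hsbam, and that comparison differs in the hsbam transgene. Ovaries hold somatic cells, which the driver does not reach, beside germ cells, and fewer cells of a type cannot be told apart from less RNA per cell. The labels do not say that replicates are separate dissections, so p-values measure only the spread between these libraries.

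Ribosomal proteins and ribosomal RNA make up the 40S subunit, which binds and decodes the mRNA, and the 60S subunit, which forms peptide bonds. Flies make most of these proteins from a single gene each, and the loss of 1 copy of many of them gives the slow-growing Minute phenotype. Their mRNAs are short and abundant, begin with a pyrimidine-rich stretch, and are a class whose translation the Tor pathway adjusts together. Germline stem cells and early cysts of the ovary have a high demand for ribosomes, and a shortage of ribosomal proteins there blocks cyst differentiation.

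Library totals lay between 2780781 counts (hsbam polysome replicate 2) and 39149303 counts (hsbam 3). As a check on the labels, the level of msl-3, in CPM (a gene's counts scaled to a fixed library total), was 65.6 and 39.1 in the libraries labelled MSL3 RNAi and 32.0 and 38.5 in hsbam 1 and 2, so it runs against that label, which is written as given. NC2beta was at 4.69 and 5.12 CPM in NC2b RNAi and at 12.2 and 16.0 CPM in hsbam 1 and 2. Set2 was at 62.2 and 54.3 CPM in Set2 RNAi, inside its control's values of 266 and 37.2 CPM. The level of bam was 2.09 and 6.17 CPM in bam RNAi and 4.61, 71.9, 173 and 77.0 CPM in hsbam 1 to 4. For bam, hsbam 1 thus lay within the bam RNAi values and apart from hsbam 2. In total RNA bam was at 4.07 and 39.1 CPM in S19b RNAi and 383 and 95.3 CPM in hsbam. RpS19b was at 29.9 and 15.0 CPM in the mutant and 189 and 249 CPM in bam RNAi. In total RNA RpS19b was at 16.8 and 1.44 CPM in S19b RNAi and 39.4 and 227 CPM in hsbam. It was also low without S19b RNAi, at 4.90 CPM in whole ovaries. In the libraries labelled MSL3 RNAi and in NC2b RNAi and Set2 RNAi it was at 1.26 to 5.26 CPM. The difference from hsbam therefore does not by itself show a knockdown in S19b RNAi. Among germline markers, aub, AGO3 and tej had counts in all 23 libraries, and vas and nos were not analysed here. Summed over aub, AGO3 and tej, CPM ran from 219 in S19b RNAi polysome replicate 2 to 1427 in bam RNAi replicate 2. The summed CPM of 7 muscle sheath genes ran from 719.9 in whole ovaries to 35350.4 in hsbam 4. The summed CPM of the heat shock genes was 22676 to 43869 in hsbam 3 and 4 and in all hsbam total and polysome libraries, against 3184 to 7842 in the others, hsbam 1 and 2 included.

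Nearly every member was expressed at a high level. RpL10Aa had 5 counts in all, from 1 library, and RpS28a had 18 counts from 5 libraries. Their copies RpL10Ab and RpS28b were expressed, at ranks 51 and 40 in level per kilobase of exon. These copies, and RpL34a with RpL34b, can share reads, and how the counting split them is not given in the sources used here. The other 69 members passed the filter on low counts in every fit and are the ones tested. Per kilobase of exon, the level that allows genes to be compared, their medians over the 23 libraries had a middle value of 1519 CPM per kilobase (RPKM). RpL41, the shortest member at 25 residues, stood first with a median of 8215 RPKM and a range of 3483 to 26375 RPKM. RpS27A, whose precursor is a fusion of ubiquitin with the 40S protein, followed at 3784 RPKM (1814 to 8300.3). RpL23 of the 60S subunit had 3756 RPKM (1379 to 7231). The ranges of RpS27A and RpL23 cover each other, and only RpL41 lay apart from its next neighbour in the median by more than 2-fold.

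At the other end of the order were RpL34a at 417 RPKM (228 to 827), RpS21 at 429 RPKM (257 to 1189) and RpL5 at 639 RPKM (389 to 1287). RpL5 binds the 5S ribosomal RNA together with RpL11, and its exons in the annotation span 3835 bases for a coding length of 897, which lowers its value per kilobase. The range of every member overlapped that of the next in the order, as the ranked plot of levels shows. RpLP1, an acidic protein of the P stalk that draws translation factors to the ribosome, ranked 5 with 2409 RPKM, RpLP2 of the same stalk ranked 10 with 2171 RPKM, and RpLP0, the stalk's base, ranked 20 with 1842 RPKM. RpL40, the second ubiquitin fusion, ranked 29 with 1677 RPKM, and sta ranked 14 with 2079 RPKM. Spearman's correlation of the member order between pairs of libraries had a median of 0.84 over 253 pairs and 69 members, from 0.514 to 0.981, as a description.

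**Figure D1:**
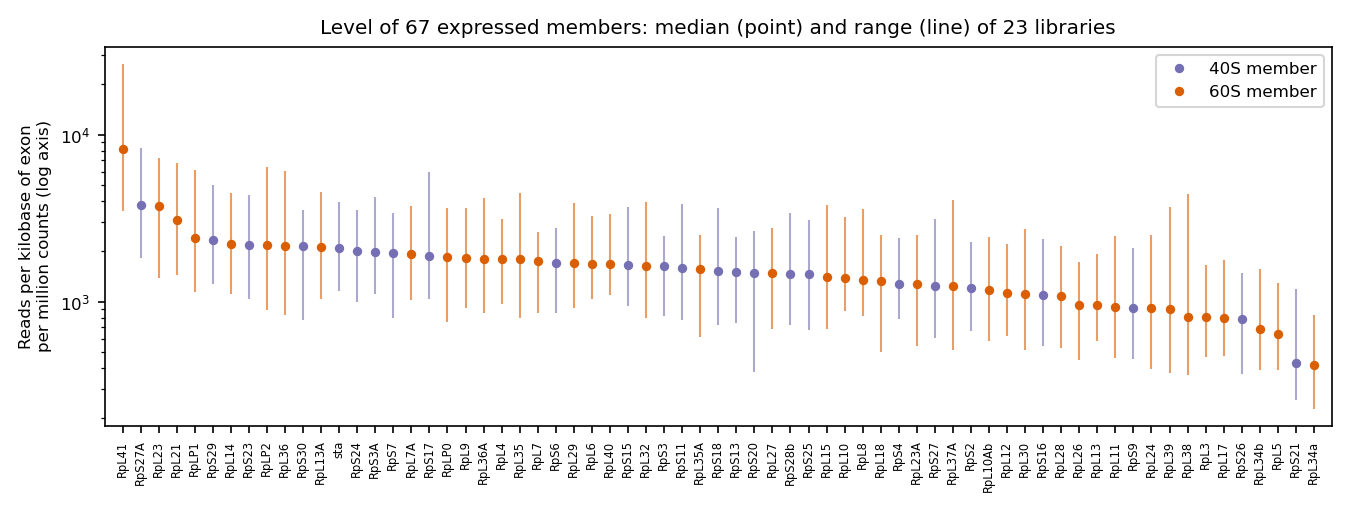
Level of 67 of the 69 expressed ribosomal protein genes in RPKM on a log axis, ordered by the median over 23 libraries, with points for medians, lines for the lowest and highest library, and colours for the 40S and 60S subunits. RpL41 stands first with a median of 8215 RPKM and RpL34a last with 417 RPKM, and the 40S and 60S members are mixed along the order.

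Together the members took a large and uneven part of each library. Their summed share of all counts was lowest in the libraries labelled MSL3 RNAi, at 5.28% and 5.91%, and highest in hsbam 4, at 19.4%, which is 3.67 times the lowest. NC2b RNAi had 8.07% and 8.42%, against 11.6% and 13.4% in hsbam 1 and 2. Set2 RNAi had 9.08% and 9.20%, close to the 9.82% of hsbam 3 and far from the 19.4% of hsbam 4.

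The mutant line had 8.76% and 9.07% and bam RNAi had 10.3% in each library. Total RNA gave 11.9% and 12.6% in S19b RNAi and 13.3% and 15.6% in hsbam. Polysome RNA gave 7.92% and 15.0% in S19b RNAi and 10.6% and 9.80% in hsbam. Whole ovaries stood second of all libraries at 17.6%. The libraries of hsbam 3 and 4 and of S19b RNAi polysome thus differed 1.97-fold and 1.89-fold within a group. The ratio of summed 60S to summed 40S counts stayed between 1.49 and 1.71 in all 23 libraries, so both subunits moved with the total.

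**Figure D2:**
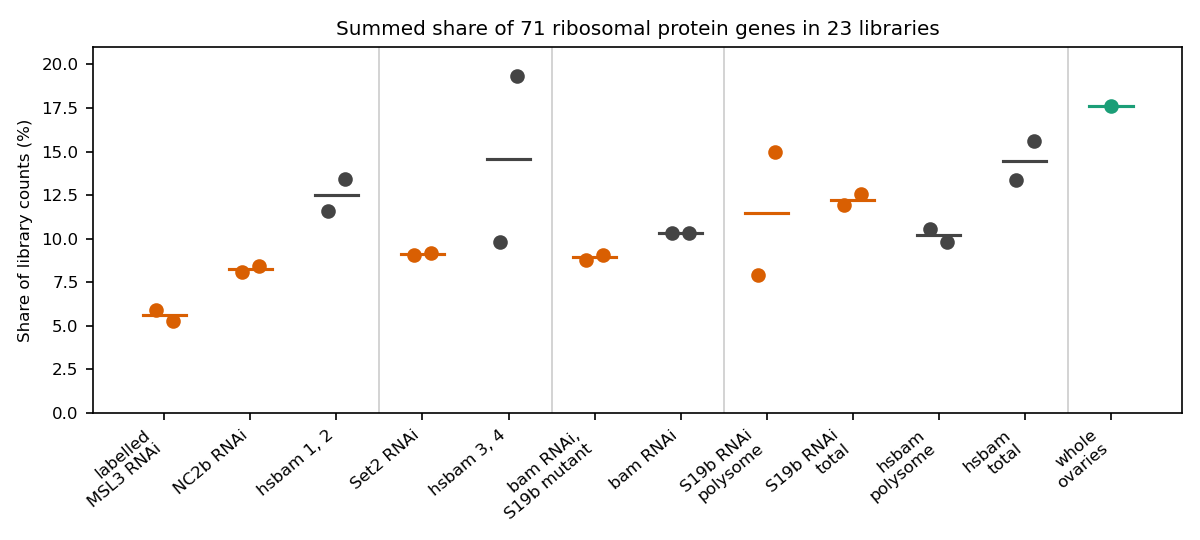
Summed share of the 71 ribosomal protein genes in all counts of a library, in percent, with a point for each library and a line for the mean of each group; orange marks the other RNAi groups and the mutant, grey the hsbam and bam RNAi controls, and green whole ovaries. The libraries labelled MSL3 RNAi sit lowest at 5.28% and 5.91%, and the 2 libraries of hsbam 3 and 4 and of S19b RNAi polysome lie far apart.

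In the libraries labelled MSL3 RNAi nearly all ribosomal protein genes were lower. Of 69 tested, 65 fell and 0 rose against hsbam 1 and 2 by the quasi-likelihood test of edgeR (Benjamini-Hochberg over all genes, threshold 0.05), where 8.48% of all 10180 tested genes fell. The members' median log2 fold change was -1.09, with the middle 50% between -1.22 and -1.02, and the median of all tested genes was -0.09. The fall was uniform: 59 of 69 members lay within 0.25 of that median. An unadjusted p under 0.05 was found for 68 members, against 39.8% of all tested genes. In 69 of 69 members both libraries labelled MSL3 RNAi were below both hsbam libraries, against 34.3% of all tested genes. Since msl-3 itself was not lower in these libraries, the direction belongs to the libraries as labelled.

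The largest fall was that of RpL41, which lies at a bridge between the subunits. It had 1156 and 1114 CPM in libraries labelled MSL3 RNAi and 2629 and 4368 CPM in hsbam 1 and 2. The fold change of RpL41 was -1.54 (SE 0.29; adjusted p = 0.0170). RpL36 of the 60S subunit came next, with 571 and 679 CPM in libraries labelled MSL3 RNAi and 1486 and 2261 CPM in hsbam (-1.50, SE 0.27; adjusted p = 0.0149). Both are members in which the control libraries themselves differ widely, and in both the groups did not overlap. The stalk proteins fell as a set, with 4 of 4 members of the P stalk list passing, its median at -1.15. RpLP1 had 875 and 965 CPM in libraries labelled MSL3 RNAi, against 2308 and 2603 CPM in hsbam 1 and 2. RpLP2 stood at 537 and 621 CPM there, and at 1312 and 1601 CPM in hsbam 1 and 2. The fold changes were -1.34 (SE 0.22; adjusted p = 0.0127) for RpLP1, -1.25 (SE 0.21; adjusted p = 0.0134) for RpLP2 and -1.04 (SE 0.22; adjusted p = 0.0238) for RpLP0.

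Small-subunit proteins fell by similar amounts, 24 of 26 with a median of -1.08, beside 41 of 43 large-subunit proteins with a median of -1.10. The 40S protein sta had 1558 and 1671 CPM in libraries labelled MSL3 RNAi and 3873 and 4032 CPM in hsbam 1 and 2. It fell by 1.22 on the log2 scale (SE 0.22; adjusted p = 0.0152). RpS6, the substrate of the S6 kinase that Tor controls, had 1021 and 1216 CPM in libraries labelled MSL3 RNAi and 2390.4 and 2566 CPM in hsbam. It fell by 1.07 on the log2 scale (SE 0.21; adjusted p = 0.0195). RpS3, at the entry of the mRNA channel, fell by 0.95 (SE 0.21; adjusted p = 0.0261). In the 40S head 9 of 10 members fell, RpS25 by 1.19 (SE 0.21) and RpS16 by 1.15 (SE 0.21), with adjusted p = 0.0146 and 0.0151.

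Large-subunit proteins with defined tasks fell too. RpL3, which lies near the peptidyl transferase centre, had 1324 and 1432 CPM in libraries labelled MSL3 RNAi and 3079 and 2306 CPM in hsbam 1 and 2 (-0.89, SE 0.25; adjusted p = 0.0496). RpL10, which joins the 60S subunit in its last assembly steps, had 1089 and 1142 CPM against 2004 and 1892 CPM (-0.73, SE 0.20; adjusted p = 0.0459). Both ubiquitin fusions fell, RpS27A by 1.11 (SE 0.26; adjusted p = 0.0292) and RpL40 by 0.95 (SE 0.20; adjusted p = 0.0227). RpL11 fell by 1.12 (SE 0.21; adjusted p = 0.0169), while its partner RpL5 did not pass at -0.59 (SE 0.20; adjusted p = 0.0841). RpL5 had 1491 and 1526 CPM in libraries labelled MSL3 RNAi and 2344 and 2438 CPM in hsbam.

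The member with the smallest difference was RpS3A, a 40S protein and the 1 member on chromosome 4 (65225 to 67207, minus strand, dm6). RpS3A had 1645 and 1561 CPM in libraries labelled MSL3 RNAi, against 2487 and 2308 CPM in hsbam 1 and 2. The groups did not overlap, but the fold change of -0.51 (SE 0.21) did not pass at adjusted p = 0.127. The other members that did not pass, named after their values were seen, were RpL21 and RpS29, at -0.77 (adjusted p = 0.0651) and -0.76 (adjusted p = 0.0658).

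The number of calls moved with the libraries in the fit more than the fold changes did. Leaving out each library in turn kept the members' median between -1.21 and -0.99. In each of these fits fewer members fell, also without an NC2b RNAi library, which enters only through the spread. With all 4 hsbam libraries as control 0 passed at a median of -1.33, and DESeq2 called 69 of 69, against 33.1% of all genes. Beside these falls, 3 of 6 markers of escort, cap and terminal filament cells fell, the summed CPM of muscle sheath genes was 4291 and 11227 in the libraries labelled MSL3 RNAi and 25210 and 7912 in hsbam 1 and 2, and that of eggshell genes was 14924 and 14683 against 7578 and 19154. Their part in the result was not tested.

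NC2b RNAi, compared with the same hsbam libraries, gave a smaller difference in nearly all members. The members' median was -0.54, with 66 of 69 below 0, and the median of all tested genes was -0.09. Only RpL26 fell, with 771 and 739 CPM in NC2b RNAi and 1258 and 1663 CPM in hsbam 1 and 2. Its fold change was -0.85 (SE 0.22; adjusted p = 0.0495), and 4.53% of all tested genes fell. RpL26 is a 60S protein near the exit of the peptide tunnel. In 61 of 69 members both NC2b RNAi libraries were below both hsbam libraries, against 40.6% of all tested genes. At an unadjusted p under 0.05 there were 33 members, against 39.4% of all tested genes. The count of calls depended on the tool, since DESeq2 called 40 members, against 33.5% of all genes it tested, and edgeR without the filter on low counts called 0. The count also changed when 1 library was left out, those labelled MSL3 RNAi included, which enter only through the spread. Summed muscle sheath CPM was 3942 and 4752 in NC2b RNAi and 25210 and 7912 in hsbam 1 and 2, and summed eggshell CPM was 28247 and 24312 against 7578 and 19154. Of the 6 markers of escort, cap and terminal filament cells 2 fell. What these add to the members' values was not tested.

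RpL36 was lowest in NC2b RNAi, with 899 and 899.6 CPM in its libraries, and hsbam 1 and 2 held 1486 and 2261 CPM (-0.96, SE 0.26; adjusted p = 0.0568). RpS7 of the 40S subunit had 1352 and 1361 CPM in NC2b RNAi and 2316 and 2966 CPM in hsbam (-0.86, SE 0.23; adjusted p = 0.0536). At the top, RpS3A was higher in NC2b RNAi, with 2791 and 2764 CPM against 2487 and 2308 CPM in hsbam (0.31, SE 0.21; adjusted p = 0.297). RpL5 differed by 0.07 (SE 0.20; adjusted p = 0.810), with 2311 and 2378 CPM in NC2b RNAi and 2344 and 2438 CPM in hsbam. None of these 4 passed, and RpS3A was the only member whose NC2b RNAi libraries both lay above the control, against 31.9% of all tested genes. Among the proteins followed above, RpS6 (-0.72, adjusted p = 0.0665), sta (-0.72, adjusted p = 0.0694) and RpLP1 (-0.75, adjusted p = 0.0644) had the smallest p, and RpL10 (-0.19, adjusted p = 0.491) was near no difference. RpS3 (-0.48), RpLP0 (-0.32), RpLP2 (-0.58), RpL3 (-0.55), RpL11 (-0.53), RpL40 (-0.60), RpL41 (-0.44) and RpS27A (-0.29) did not pass either.

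NC2b RNAi and the libraries labelled MSL3 RNAi share their control, so both were also compared directly. All 69 members were lower in the libraries labelled MSL3 RNAi than in NC2b RNAi, with a median of -0.57 beside 0.04 for all tested genes, and in all 69 the groups did not overlap, against 23.2% of all tested genes. By edgeR 0 members passed, as did 0% of all genes. At an unadjusted p under 0.05 the test gave 40 members, against 11.6% of all genes, and DESeq2 called 10, against 2.33%. The difference was largest for RpL41, with 1156 and 1114 CPM in libraries labelled MSL3 RNAi and 2496 and 2322 CPM in NC2b RNAi (-1.11, SE 0.29; adjusted p = 0.417). RpL39, a 51-residue 60S protein at the tunnel exit, had 107 and 113 CPM against 259 and 191 CPM (-1.05, SE 0.22; adjusted p = 0.417). RpL39 and RpL12 overlap on opposite strands, so its value is uncertain. The smallest differences were those of RpL4 (-0.33, SE 0.23; adjusted p = 0.573) and RpL23A (-0.34, SE 0.23; adjusted p = 0.569).

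Other lists of the translation machinery had mixed counts, to be read beside the 16.8% of all tested genes that rose and the 8.48% that fell in the libraries labelled MSL3 RNAi. Of 13 tested paralogs left out of the members, 10 fell and 0 rose in the libraries labelled MSL3 RNAi against hsbam 1 and 2. Leading them were RpS19b (-5.76, SE 0.58) and RpS15Ab (-1.59, SE 0.21), both with adjusted p = 0.00978. The low RpS19b level was not particular to these libraries. NC2b RNAi and Set2 RNAi lay between 2.78 and 5.26 CPM, and whole ovaries, which had no RNAi, at 4.90. Against these, hsbam 1 and 2 held 85.4 and 165 CPM. The part of the hsbam genotype in this fall was not tested. Of 7 elongation factors and other mRNAs of the pyrimidine-rich class, 1 fell, Rack1 (-0.97, SE 0.22; adjusted p = 0.0279), whose protein sits on the 40S head, and the list's median was -0.45. Mitochondrial ribosomal protein genes had 10 of 70 fall and 0 rise at a median of -0.45. Of 26 ribosome biogenesis genes 4 rose and 4 fell, among them nclb (-1.25, SE 0.16), for nucleolar chromatin, and Fib (-1.36, SE 0.18), the rRNA methyltransferase fibrillarin. Of 14 regulators of ribosomal protein genes 4 rose and 0 fell, and neither this count nor that of the biogenesis genes was tested against all genes. Mnt, the repressor that competes with Myc, rose by 2.39 (SE 0.20; adjusted p = 0.00978), and raptor, a Tor complex subunit, by 1.89 (SE 0.27; adjusted p = 0.0100). In NC2b RNAi, where 14.1% of all tested genes rose and 4.53% fell, the same lists had 5 of 13 paralogs, 0 of 7 elongation factors and 2 of 70 mitochondrial genes lower, and of 26 biogenesis genes 3 rose and 1 fell. There 3 of 14 regulators rose, Mnt by 2.47 (SE 0.20) and raptor by 1.56 (SE 0.26), both past the threshold. These lists were chosen with earlier results of these data known.

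**Figure D3:**
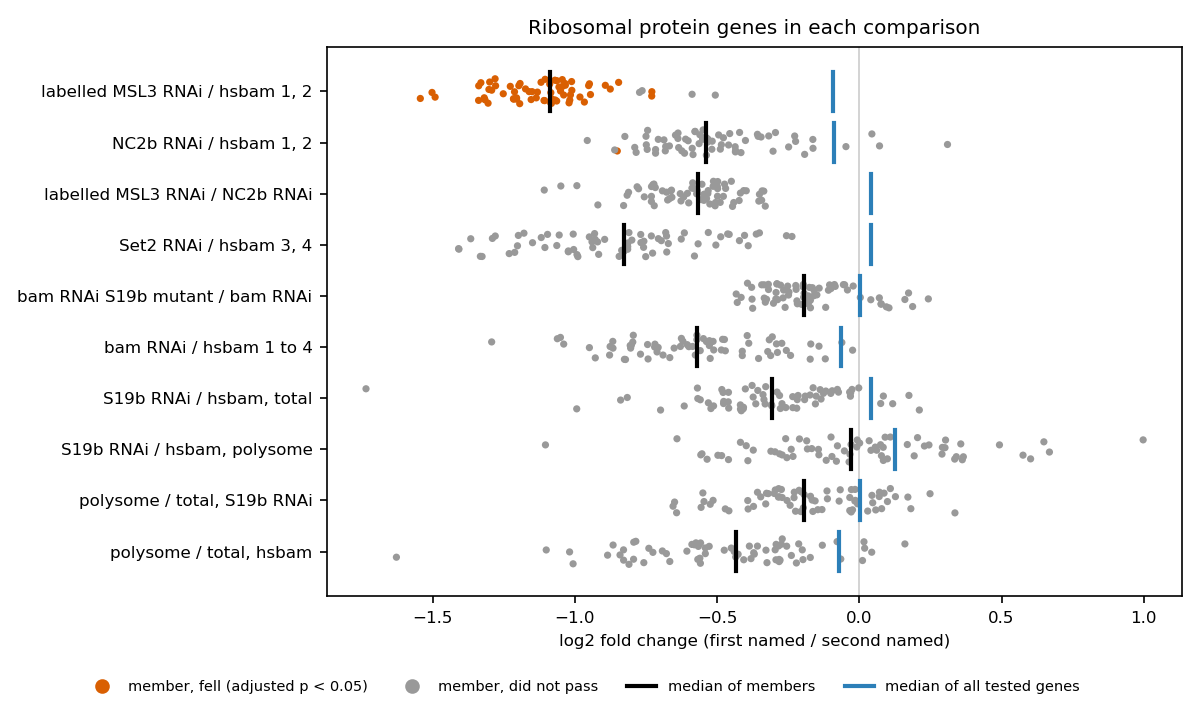
Log2 fold change of the 69 tested ribosomal protein genes in 10 comparisons, each named as first group over second, with orange points for members that fell at adjusted p under 0.05 by edgeR, grey points for the others, a black line for the members' median and a blue line for the median of all tested genes. The members' median is -1.09 in the libraries labelled MSL3 RNAi, where 65 points are orange, and lies between -0.83 and -0.03 in the other comparisons, the last being S19b RNAi polysome RNA, where scaling by library size alone gives 0.21.

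Set2 RNAi could not be set firmly against its control, because hsbam 3 and hsbam 4 differed. The members' median was -0.83, all 69 members were below 0, and 0 passed, as did 0% of all 9313 tested genes, where the median was 0.04. By edgeR 0 members had an unadjusted p under 0.05, against 21.2% of all genes, and DESeq2 called 0 members, against 14.5%. In 38 of 69 members both Set2 RNAi libraries were below both hsbam libraries, against 25.5% of all tested genes, and in 0 both were above, against 39%. Without hsbam 4 the median was -0.22, and without hsbam 3 it was -1.28. Whether members passed depended on which hsbam library was kept, and the share of all genes passing in those fits is not given here.

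RpLP2 had the lowest value, with 1155 and 1079.9 CPM in Set2 RNAi, against 1380.2 and 3871 CPM in hsbam 3 and 4 (-1.41, SE 0.61; adjusted p = 0.285). RpL38, a 70-residue 60S protein, had 781 and 786 CPM in Set2 RNAi, against 798 and 2871 CPM in hsbam (-1.41, SE 0.70; adjusted p = 0.339). In both the Set2 RNAi libraries lay just under hsbam 3 and far under hsbam 4. RpL34a, with 269.8 and 259 CPM in Set2 RNAi, against 232 and 322 CPM in hsbam (-0.24, SE 0.38; adjusted p = 0.736), and RpL28 (-0.26, SE 0.38; adjusted p = 0.715) were closest to no difference. Summed muscle sheath CPM was 1984 and 1902 in Set2 RNAi and 15755 and 35350.4 in hsbam 3 and 4, and summed heat shock CPM was 6642 and 6726 against 25189 and 35391. The part of either in the members' values was not tested.

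The control pairs carry 1 genotype, but their heat shock genes summed to 3859 and 4564 CPM in hsbam 1 and 2 and to 25189 and 35391 CPM in hsbam 3 and 4. Between hsbam 1 and 2 and hsbam 3 and 4 the members' median was -0.39, as large as in several of the designed comparisons, and 0 members passed, as did 0% of all 10031 genes tested. No member had an unadjusted p under 0.05 by edgeR, against 5.93% of all genes, and DESeq2 called 0, against 1.22%. In 4 members both libraries hsbam 1 and 2 were above both of hsbam 3 and 4, against 25% of all tested genes, and in 0 both were below, against 12.4%. RpL39 had 235 and 304 CPM in hsbam 1 and 2 and 229 and 1055 CPM in hsbam 3 and 4 (-1.48, SE 0.79; adjusted p = 0.856), and RpL38 had 698 and 965 CPM against 798 and 2871 CPM (-1.36, SE 0.74; adjusted p = 0.859). In each, hsbam 4 alone stood apart. RpL28 (0.25, SE 0.47) was the highest. The median became 0.25 without hsbam 4.

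Ovaries with bam RNAi, which keep undifferentiated germ cells, were also set against the 4 hsbam libraries, a comparison that the study's design text does not name. The members' median was -0.57, all 69 were below 0 (RpL23 and RpS30 were above 0 with library size alone, at 0.15 and 0.11), and 0 passed by edgeR at an adjusted p of 0.05, with 4 at an unadjusted p under 0.05 and 3 by DESeq2. Of all 10088 genes tested 0% fell by edgeR at the adjusted threshold, 21.2% had an unadjusted p under 0.05 and DESeq2 called 13.5%. In 17 of 69 members both bam RNAi libraries were below all 4 hsbam libraries, against 14.2% of all tested genes. The lowest was RpS20, a protein of the 40S head, with 364 and 607 CPM in bam RNAi and 1035, 1076, 808 and 1239 CPM in hsbam 1 to 4 (-1.29, SE 0.38; adjusted p = 0.139). RpS20 overlaps CG17272 on the opposite strand, and its value is uncertain. RpL18 was next (-1.06, SE 0.44; adjusted p = 0.226), and RpL23 (-0.02, SE 0.43) and RpS30 (-0.06, SE 0.43) were the highest. Without hsbam 3 the median was -0.78, and without hsbam 4 it was -0.19. Summed muscle sheath CPM was 3157 and 3125 in bam RNAi and 7912 to 35350.4 in hsbam 1 to 4, and summed eggshell CPM was 2504 and 2357 against 4938 to 19154. Heat shock genes summed to 4650.1 and 5282 CPM in bam RNAi, against 3859 and 4564 CPM in hsbam 1 and 2 and 25189 and 35391 CPM in hsbam 3 and 4. The germline markers aub, AGO3 and tej summed to 1110 and 1427 CPM in bam RNAi, against 321 to 588 CPM in hsbam 1 to 4. The part of these in the members' values was not tested.

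In the S19b mutant line, where RpS19b mRNA itself was lower, no member passed the test against bam RNAi without a replicate block. With a block some members fell, as the last section gives, but replicate numbers are not stated to pair libraries. The members' median was -0.20 between the mutant and bam RNAi, 58 of 69 were below 0, and 0 passed, while 6.13% of all 9595 tested genes did, 5.52% upward and 0.604% downward. At an unadjusted p under 0.05 edgeR gave 0 members, against 23% of all genes, and DESeq2 called 0, against 12.1%. In 34 of 69 members both mutant libraries were below both bam RNAi libraries, against 28.3% of all genes, and in 2 both were above, against 26.6%. RpL37A had 1061 and 785 CPM in the mutant and 1462 and 1118 CPM in bam RNAi (-0.43, SE 0.28; adjusted p = 0.418). RpL32 had 1132 and 971 CPM in the mutant and 1571 and 1363 CPM in bam RNAi (-0.43, SE 0.24; adjusted p = 0.346).

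RpL15 was highest, at 1276 and 1753 CPM in the mutant and 1106 and 1554 CPM in bam RNAi (0.24, SE 0.25; adjusted p = 0.611), followed by RpL21 (0.19, SE 0.22; adjusted p = 0.674). Replicate 1 was lower than replicate 2 in both groups for RpL15. In the list of left-out paralogs 1 of 13 genes fell, RpS19b itself (-3.22, SE 0.36; adjusted p = 0.0165), and none of the elongation factor, regulator, biogenesis or mitochondrial ribosomal protein genes passed. Of 7 muscle sheath genes 6 rose, such as Mp20 (1.58, SE 0.24; adjusted p = 0.0206). Summed muscle sheath CPM was 6491 and 10967 in the mutant and 3157 and 3125 in bam RNAi. Eggshell genes summed to 10568 and 5421 CPM in the mutant, against 2504 and 2357 CPM. Hemocyte and fat body genes summed to 3828 and 5243 CPM, against 2893 and 2370 CPM. The germline markers aub, AGO3 and tej summed to 735 and 789 CPM, against 1110 and 1427 CPM. What these add to the members' values was not tested.

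In S19b RNAi no ribosomal protein gene passed against hsbam, and libraries of the same group lay far apart. In total RNA the median was -0.31 and in polysome RNA -0.03, with 0 of 69 passing in either, as did 0% of all 9688 genes tested. By edgeR 0 members had an unadjusted p under 0.05 in either fraction, against 1.75% of all genes in total and 3.3% in polysome RNA, and DESeq2 called 0 in both, against 0.475% and 1.34%. In total RNA 22 of 69 members had both S19b RNAi libraries below both hsbam libraries, against 13.7% of all tested genes, and in polysome RNA 0, against 9.82%. The polysome median was 0.21 when libraries were scaled by size alone, and it was -0.59 without S19b RNAi polysome replicate 2 and 0.34 without replicate 1. The total RNA median was -0.14 without hsbam total replicate 2. In total RNA summed muscle sheath CPM was 22831 and 7794 in S19b RNAi and 5425 and 20658 in hsbam, and in polysome RNA it was 18231 and 8206 against 5550.1 and 25743. Summed eggshell CPM was 3431 and 20983 in S19b RNAi total RNA, against 4039 and 4257 in hsbam total RNA. Heat shock genes summed to 3184 and 4907 CPM in S19b RNAi total RNA, against 22676 and 28677 CPM in hsbam total RNA. Their part in the members' values was not tested.

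In total RNA RpL38 was lowest, with 1177 and 649.6 CPM in S19b RNAi and 1094 and 4472 CPM in hsbam (-1.73, SE 0.81; adjusted p = 1.00), where hsbam total replicate 2 stood apart. RpL41 had 3896 and 2729 CPM in S19b RNAi and 3729 and 8439.9 CPM in hsbam (-0.99, SE 0.83). RpS2 (0.21, SE 0.63) and RpL23A (0.17, SE 0.66) were highest. In polysome RNA RpS20 had 465 and 1027 CPM in S19b RNAi and 467 and 214 CPM in hsbam (1.00, SE 0.58; adjusted p = 0.989), and RpL37A had 711 and 1221 CPM against 688 and 2433 CPM (-1.10, SE 0.86). RpS18 (0.67, SE 0.67) and RpL36 (-0.64, SE 0.72) were next at either end. The ranges of all 4 overlapped between S19b RNAi and hsbam.

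Polysome against total RNA asks how far an mRNA is loaded with ribosomes. In hsbam the members' median log2 ratio of polysome to total was -0.43, beside -0.07 for all tested genes, and 64 of 69 were below 0. In 42 of 69 members both polysome libraries were below both total libraries, against 10% of all tested genes. None passed, as did 0% of all genes, 1 member had an unadjusted p under 0.05, against 0.434% of all genes, and DESeq2 called 0, against 0%. Each pair of same-numbered hsbam libraries gave the same direction, with 59 members below 0 and a median of -0.44 in replicate 1, and 68 below 0 and a median of -0.65 in replicate 2, both from CPM. The fitted median was -0.23 without hsbam polysome replicate 1 and -0.77 without replicate 2. These replicate numbers are not stated to mark the same lysate. Heat shock genes summed to 22676 to 43869 CPM in these hsbam libraries, against 3184 to 4907 CPM in S19b RNAi total and polysome RNA. The hsbam polysome replicate 2 library had 2780781 counts. The part of either in the ratios was not tested.

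S19b RNAi gave opposite directions in its 2 libraries. In replicate 1, 66 of 69 members were below 0 with a median of -0.59, and in replicate 2, 61 were above 0 with a median of 0.27. Fitted together, the median was -0.19, and 0 members passed, had an unadjusted p under 0.05 or were called by DESeq2, against 0%, 0.0516% and 0% of all genes. In 4 of 69 members both polysome libraries were below both total libraries, against 8.74% of all tested genes. The difference between S19b RNAi and hsbam in this ratio, an interaction term, had a median of 0.30 over members and 0.06 over all genes, and 0 members passed, as did 0% of all genes. By edgeR 0 had an unadjusted p under 0.05, against 0.0516% of all genes, and DESeq2 called 0, against 0%. The median was -0.26 without S19b RNAi polysome replicate 2 and 0.67 without replicate 1. In that interaction RpL38 (1.18, SE 1.12) and RpS20 (1.07, SE 0.81) were highest, and RpL37A (-0.26, SE 1.21) and RpL36 (-0.24, SE 1.02) lowest.

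Single members varied widely in the ratio. RpS20 had 467 and 214 CPM in hsbam polysomes and 1208 and 841 CPM in hsbam total RNA (-1.63, SE 0.58; adjusted p = 1.00). RpL41 had 1491 and 3608 CPM in hsbam polysomes and 3729 and 8439.9 CPM in total RNA (-1.10, SE 0.84; adjusted p = 1.00). In each the polysome library was lower than the total library of its own number. RpL8 (0.16, SE 0.68) and RpL36 (0.04, SE 0.72) were the highest. In S19b RNAi the lowest were RpL35 (-0.66, SE 0.68) and RpS28b (-0.65, SE 0.71), and the highest RpL8 (0.34, SE 0.68) and RpS18 (0.25, SE 0.67). Over all 4 pairs of libraries, 8 members were below 0 in each, RpL5, RpL6, RpL15, RpL28, RpL35, RpS3A, RpS6 and RpS20, named after their values were seen, and 0 were above 0 in each.

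The ratio varied with the length of the coding sequence. Over 69 members the log2 ratio of polysome to total and the log2 of the coding length had Pearson's r = 0.36 and Spearman's rho = 0.29 in S19b RNAi, and r = 0.49 and rho = 0.48 in hsbam, as a description across genes that share their libraries. Shorter members had lower ratios. The relation was 0.68 in S19b RNAi replicate 1, 0.60 in hsbam replicate 1 and 0.26 in hsbam replicate 2, and it was -0.24 in S19b RNAi replicate 2. With exon length in place of coding length, r over both replicates was lower, at 0.15 in S19b RNAi and 0.34 in hsbam. For the 9 members with a coding length under 300 bases, RpL41 the shortest of them at 75, the median ratio in hsbam was -0.83, beside -0.42 for the 60 others.

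**Figure D4:**
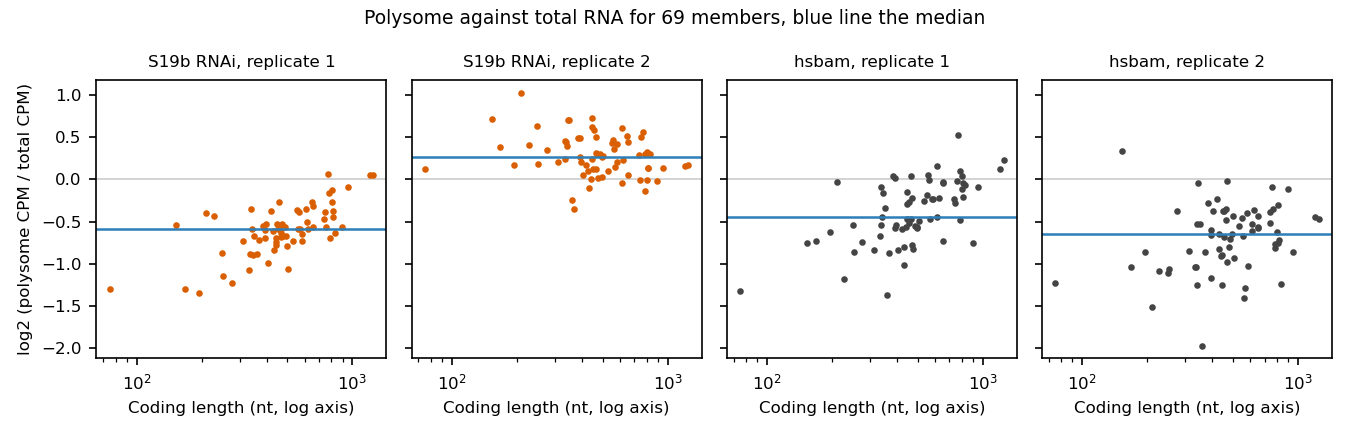
Log2 ratio of polysome to total CPM for each of 69 ribosomal protein genes against coding length in nucleotides on a log axis, in a panel for each pair of same-numbered libraries of S19b RNAi and hsbam, with a blue line for the median. Ratios rise with length in 3 panels, with r from 0.26 to 0.68, and S19b RNAi replicate 2 differs with a median of 0.27 and r = -0.24.

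Apart from their common level, the members also shifted against each other. Expressed as a share of all counts of the 71 genes, a member's value varied over the 23 libraries with a median coefficient of variation of 16.5%, compared with 36.9% for its CPM. Among the steadier members were RpL7A (8.89%) and RpL34b (9.09%), both of the 60S subunit. RpL38 was the least steady at 50.2%, between 0.518% of the pool in S19b RNAi total replicate 2 and 2.87% in hsbam total replicate 2. RpL37A (41.8%), RpL39 (35.7%), RpL41 (33.5%) and RpS20 (32.6%) followed, and these 5 members have coding lengths of 75 to 360 bases. Of the 10 shortest members the median coefficient was 21.4%, of the 10 longest 20.3% and of the 49 between them 14.6%. Members named here for their steadiness were picked after their values were seen.

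The make-up of the pool marked libraries more than groups. Each library was described by the log2 ratio of each member's pool share to its median over the libraries. In hsbam total replicate 2, hsbam 4, hsbam polysome replicate 2, bam RNAi replicate 1 and the mutant's replicate 1 the numbers of members more than 0.5 away were 20, 19, 19, 17 and 16, and in the other 18 libraries 0 to 9. The mutant's replicate 1 was most like bam RNAi replicate 1 (r = 0.90 over 69 members), and the mutant's replicate 2 most like bam RNAi replicate 2 (r = 0.76). S19b RNAi total replicate 1 and hsbam total replicate 2 were most like each other (r = 0.76), and hsbam polysome replicate 2 was most like hsbam total replicate 2 (r = 0.76). NC2b RNAi replicate 2 and whole ovaries also had r = 0.76. The libraries labelled MSL3 RNAi were most like each other (r = 0.86), as were those of Set2 RNAi (r = 0.77).

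RpS18 shows the pattern. Its pool share was 0.642% and 0.981% in the mutant and 0.678% and 1.12% in bam RNAi, so replicate 1 was the lower in both. It was 0.680% and 1.08% in S19b RNAi total RNA and 1.02% and 0.460% in hsbam total RNA, with the low value in replicate 1 of S19b RNAi and replicate 2 of hsbam. The bam RNAi library, the mutant library and the total libraries with these low values had the lower total count of their groups, 9559023, 11935567, 9094606 and 10037002. What depth adds to the pattern was not tested. RpL37A ran the other way, at 1.21% and 0.865% in the mutant, 1.42% and 1.08% in bam RNAi, 1.39% and 0.764% in S19b RNAi total RNA and 0.865% and 2.03% in hsbam total RNA. RpL37A overlaps an antisense RNA, which leaves its value uncertain.

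**Figure D5:**
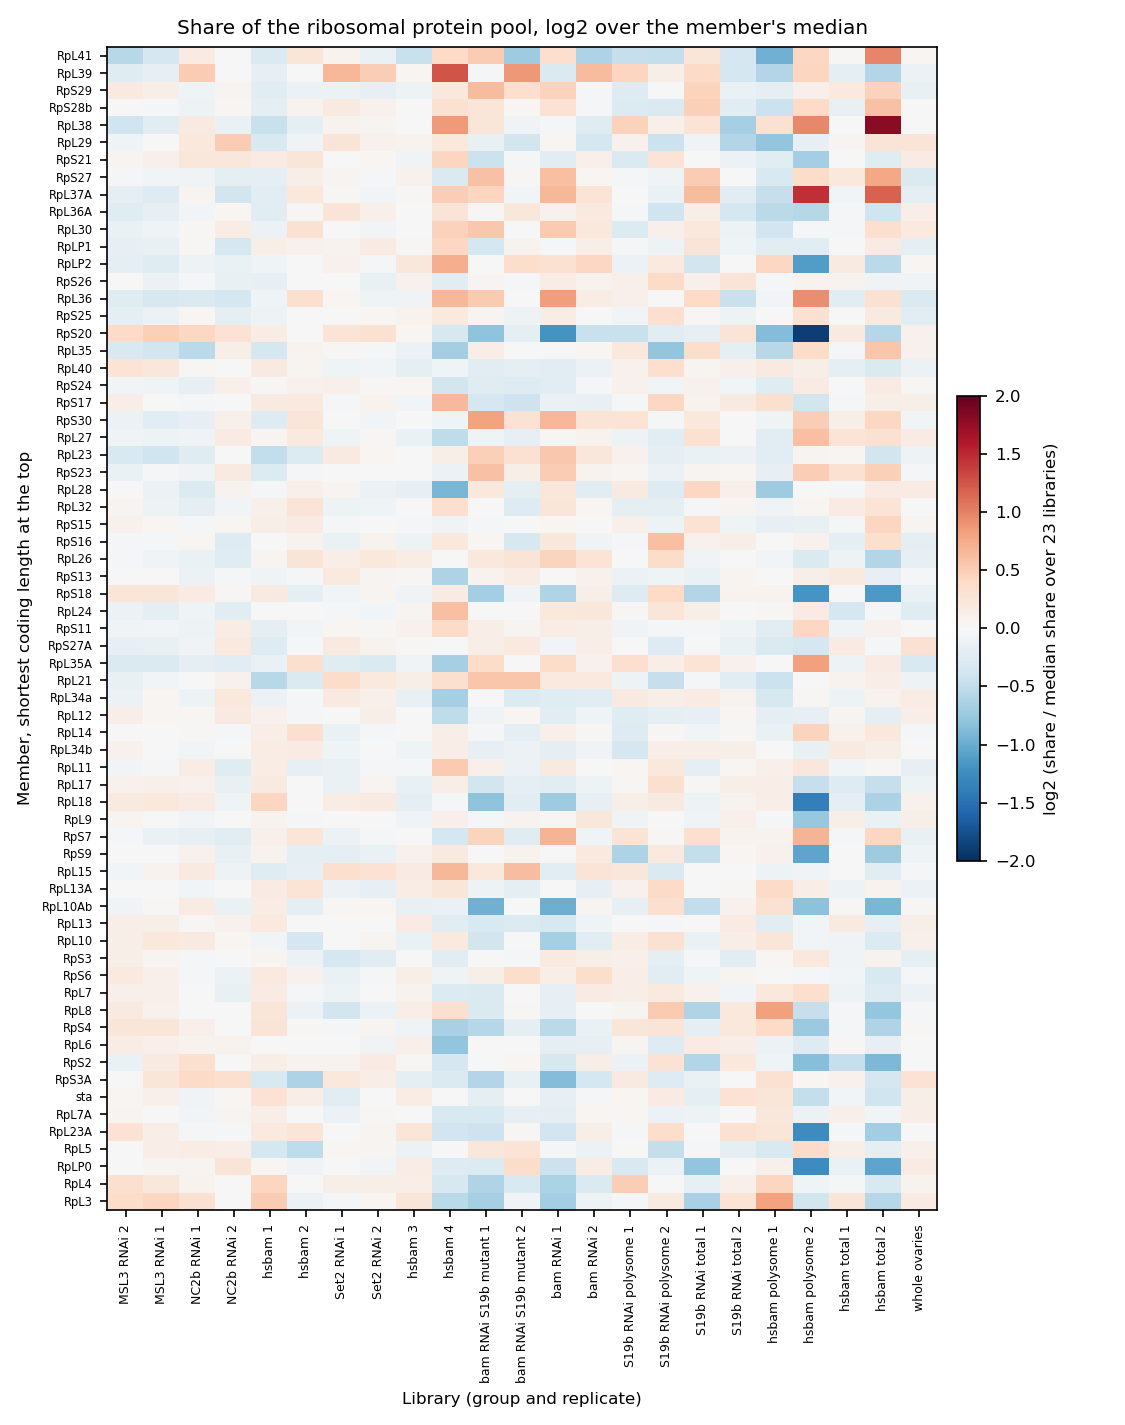
Log2 ratio of a member's share of the ribosomal protein pool to its median over 23 libraries, with 67 of the 69 members in rows from the shortest to the longest coding length and libraries in columns by group and replicate; red is above the member's median and blue below. RpL38 and RpL37A are red and RpS18 and RpLP0 blue in hsbam total replicate 2, and the columns of bam RNAi replicate 1 and the mutant's replicate 1 look alike (r = 0.90).

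The members' fold changes in the libraries labelled MSL3 RNAi were also read by chromosome and gene structure. The members lie on chromosomes 2L (16), 2R (15), 3L (13), 3R (19), 4 (1) and X (7). Since the MSL complex acts on the X chromosome in males, the 7 X-linked members, RpL7A, RpL17, RpL35, RpL36, RpS6, RpS28b and sta, were read apart. All 7 fell, with a median of -1.13, beside 58 of 61 on chromosomes 2 and 3 with a median of -1.09, while RpS3A on chromosome 4 had the smallest change of all 69 at -0.51 and did not pass. Of the members, 24 host 50 small nucleolar RNAs (snoRNAs), guides of rRNA modification, in their introns. The snoRNA hosts had a median of -1.09 (21 of 24 fell) and the other members -1.11 (44 of 45 fell).

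The exons of 25 members overlap another gene, 21 of them on the opposite strand, and since the strand setting of the counting is not given in the sources used here their values are less certain. Those 25 had a median of -1.09 (24 fell) and the 44 without overlap a median of -1.11 (41 fell). For coding length, r with the fold change was 0.36 over 69 members in the libraries labelled MSL3 RNAi, -0.09 in NC2b RNAi, 0.55 in the direct comparison of the 2 and 0.32 in Set2 RNAi, as a description. The 9 members under 300 bases had a median of -0.73 in the direct comparison, beside -0.55 for the 60 others.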

How the data were processed

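Poly(A) RNA was fragmented for 13 minutes and made into directional libraries, per the labels' protocols. The authors deposited raw read counts per gene. The submitters' processing notes name HISAT2 2.1.0, featureCounts 1.6.0.4, edgeR 3.16.5 and the build dm6. They give no strand setting and no annotation release. Gene places and lengths come from the reference annotation supplied with the files. CPM are counts over the library total, and levels per kilobase divide CPM by the union of annotated exons.

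The test was edgeR 4.0.16 under R 4.3.3, its quasi-likelihood F test after TMM scaling. Genes were kept by filterByExpr with the groups (at least 10 counts, 15 in total), and p-values were adjusted by Benjamini-Hochberg across every gene kept, at 0.05. The libraries labelled MSL3 RNAi, NC2b RNAi and hsbam 1 and 2 were fitted jointly, as were the 8 total and polysome libraries. Groups are said not to overlap where all libraries of 1 group lie beyond all of the other. Alternatives were DESeq2 1.42.0, other scalings, no filter, other controls, a replicate block and leaving out each library. On simulated data the fit with MSL3 RNAi as labelled recovered 9% of 2-fold and 98% of 8-fold changes, that of Set2 RNAi 0% and 53%, that of the mutant 61% and 100%, and that of S19b RNAi total RNA 2% and 38%. Of the calls on simulated data, 4 were wrong beside 107 right in the fit with MSL3 RNAi as labelled, and 4 beside 53 in that of Set2 RNAi. There were 25 wrong beside 161 right in that of the mutant, and 8 beside 40 in that of S19b RNAi total RNA. Figures used Python 3.11.15 and matplotlib 3.10.9.

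The members, gene lists and alternatives were chosen with earlier results of these data known. Members were named by rule: 14 set ones (RpS12, not analysed here, among them), the 2 highest and 2 lowest fold changes of each comparison (mean log2 CPM no lower than 2), those failing the filter, and the 3 highest and 3 lowest levels per kilobase. At most 2 passing genes per list were named. The values of 2 members are not reported here. Another 8 small tables were not used.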

Additional observations from a re-analysis of the deposited data

How the results depend on the processing

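Over the alternatives, values of named genes kept direction and side of the threshold in 800 cases, lost the call in 83, gained it in 36 and changed sign in 37. The members' median kept its sign under all scalings and tools run, except in S19b RNAi polysome RNA with library size alone (0.21). That scaling moved the median of all genes to 0.21 in Set2 RNAi, 0.25 in S19b RNAi polysome RNA, 0.08 between the hsbam pairs and 0.11 in bam RNAi, against 0.04, 0.12, -0.09 and -0.07. The cause of the changes below was not tested.

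In the libraries labelled MSL3 RNAi 0 members passed with all 23 libraries in 1 fit or with all 4 hsbam libraries as control (median -1.33). In NC2b RNAi 2 passed with DESeq2 size factors, 3 with library size alone, 40 with DESeq2, and 0 without the filter, with all 23 libraries or with all 4 hsbam libraries (median -0.72). There RpL5 was -0.028 with library size alone and -0.34 with all 4 hsbam libraries. Between these 2 groups DESeq2 called 10. In bam RNAi 1 passed without the filter and 3 with DESeq2, and library size alone gave RpL23 0.15 and RpS30 0.11. The same scaling gave RpL36 -0.087 in hsbam polysome over total RNA and RpL37A 0.030 in the change of that ratio.

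Leaving out 1 library in turn gave 1 to 55 calls in the libraries labelled MSL3 RNAi, 0 to 9 in NC2b RNAi and 0 to 24 in bam RNAi, with a median of -0.78 to -0.19, where RpL23 ran from -0.27 to 0.35 and RpS30 from -0.34 to 0.24. Set2 RNAi had 0 to 68 calls, a median of -1.28 to -0.22 and RpL34a from -0.47 to 0.047. The median was -0.25 to -0.17 in the mutant and -0.86 to 0.25 between the hsbam pairs, where RpL39 ran from -2.22 to 0.12. In S19b RNAi the median was -0.42 to -0.14 in total RNA, with RpS2 from -0.22 to 0.56, and -0.59 to 0.34 in polysome RNA, with RpS18 from -0.32 to 1.25, RpL36 from -1.25 to 0.28 and RpL37A from -1.91 to 0.57. Polysome over total RNA had a median of -0.65 to 0.17 in S19b RNAi, with RpL8 from -0.46 to 0.87 and RpS18 from -0.70 to 0.83, and of -0.77 to -0.23 in hsbam, with RpL36 from -0.87 to 0.63 and RpL8 from -0.22 to 0.51. The change of that ratio had a median of -0.26 to 0.67, with RpL38 from -0.29 to 1.88, RpL36 from -0.80 to 0.67 and RpL37A from -1.27 to 1.40.

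The replicate numbers are not stated to pair libraries. Same-numbered libraries deviated together with correlations of -0.07 to 0.13 among the libraries labelled MSL3 RNAi, NC2b RNAi and hsbam 1 and 2, 0.21 between the mutant and bam RNAi, 0.49 and 0.30 between total and polysome RNA of S19b RNAi and of hsbam, and -0.29 to -0.18 across those genotypes. With a replicate block 60 members passed in the libraries labelled MSL3 RNAi, 0 in NC2b RNAi, 17 in the mutant and 5 in bam RNAi. The share of all genes passing with the block is not given here, so these counts cannot be read as particular to the members. With the block RpL36 was -0.069 in hsbam polysome over total RNA, and RpL37A was 0.0024 in the change of that ratio. No paired analysis was possible for Set2 RNAi and between the hsbam pairs because the libraries share no number. Promoter motifs were not run. Without 1 library, the lone library of its group was assumed to vary like the others. Apart from the mutant's, the simulated fits recovered at most 9% of 2-fold changes. In the mutant the members' fold changes lay between -0.43 and 0.24 on the log2 scale, and recovery at sizes under 2-fold was not tested. In no comparison, the mutant's included, is a member that did not pass shown to be equal.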
